A study of Oryza sativa Indica Group with 17 samples.

Results

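Probe sets with low hybridization in both G282 and G6989, gamma ray mutants of the indica rice variety IR64, were examined across all arrays of a deletion survey. The members were chosen by their values on these arrays: they are the probe sets with a share of flagged probes of 0.5 or more in both lines, less those that also reached 0.5 in both d1 and G650, which left 237 of the 57194 probe sets. The share is the fraction of the perfect match probes of a set, usually 11, whose signal was low against wild type, and a set at 0.5 or more is said to be called. Genomic DNA came from leaves of plants 45 days old, with 1 array for each of 16 lines; the mutants of the study were at generation M4 or M5. The 11 lines made with gamma rays are d1, G282, G650, G6485, G6489, G6603, G6686, G6728, G7534, G9799 and G6989. F1856 and F2045 were made with fast neutrons, and D256, D1137 and D2943 with diepoxybutane (DEB). The sample labels give DEB for d1, and the methods of the study give gamma rays. G650, F1856, D1137 and D2943 carry alleles of spl1, a locus of spotted leaves, G9799 and F2045 show the spl1 phenotype, and d1 is a mutant of RGA1. A further array, the wild type check, carried DNA of unmutagenized IR64. All lines share the IR64 background and are set against wild type, so the arrays are not independent of each other.

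An oligonucleotide array designed for transcripts can be read with genomic DNA: where a stretch of the genome is lost, the probes that match it bind less labeled DNA. Gamma rays and fast neutrons break both DNA strands and can remove long stretches with many genes, while DEB, a crosslinking agent, tends to leave smaller lesions. A deletion that spans several genes lowers neighboring sets together. Probes that match gene families or repeats can keep their signal from the remaining copies.

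Across the arrays the mean share over all probe sets ran from 0.00684 in F1856 to 0.176 in G6989, and the number of called sets from 8 in D2943 to 1461 in G6989. G282 and G6989 had the highest mean shares (0.108 and 0.176) of the 17 arrays, with 0.0745 in the wild type check. For G282 the study recommended a stricter limit to lower false positives, since many deletions were predicted. The study's deletion counts per line leave out G6989 and D1137. Arrays that deviated strongly from wild type were discarded there, and whether G6989 was among them is not stated. Each line has 1 array, so no spread between replicates can be given. A share rests on about 11 probes, and the intervals below cover counting error over probe sets only.

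The values of the rule are a description of how the members were chosen. G282 had 990 called sets (1.73% of the array) and G6989 had 1461 (2.55%). Both lines called 243 sets (0.425%), which is 24.5% of the list of G282 and 16.6% of that of G6989, and 6 of these were left out because d1 and G650 called them too. The median share of the members was 0.636 in each line, with quartiles of 0.545 and 0.727 in G282 and of 0.545 and 0.636 in G6989. G282 was the higher line in 80 members and G6989 in 67, and 90 members had equal shares.

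In 163 of the 237 members at least 1 of the lines lay close to the threshold, with a share of 0.545 or lower. In 59 of them both lines had 6 of 11 probes flagged, the lowest step above 0.5 for such sets. Just outside, 344 sets were called in 1 of the lines and had a share from 0.4 up to 0.5 in the other, and 201 lay in that range in both. Only 5 members exceeded 0.8 in both lines. All probes were flagged in 5 members in G282 and in 2 members in G6989.

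**Figure D1:**
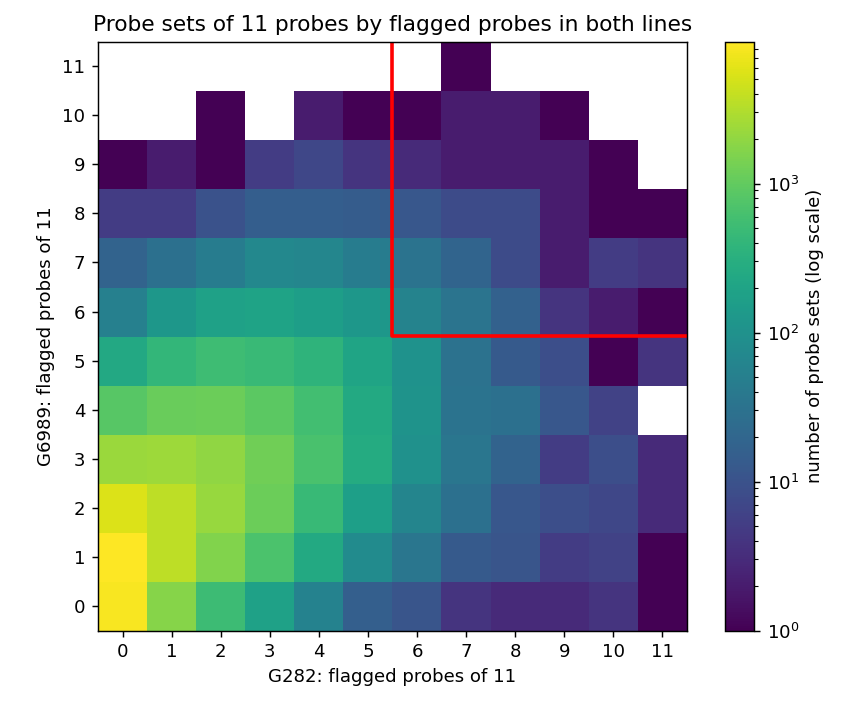
Probe sets of 11 probes by the number of flagged probes in G282 (x axis) and G6989 (y axis), with the number of sets as color on a log scale. The red corner holds the sets called in both lines, before the few also called in both d1 and G650 were left out; the 59 members with 6 flagged probes in each line form its lower left cell.

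On the arrays that the rule did not use, the members were lowest in signal in gamma ray line G6603. G6603 called 50 of the 237 members, 21.1% (95% exact Clopper-Pearson interval 16.1 to 26.8%), against 0.247% of all probe sets. Their median share there was 0.364, with quartiles of 0.273 and 0.455, while the median over all sets was 0. The share in G6603 was above that in the wild type check in 208 of the members (87.8%) and in 24.9% of all sets. G7534 came next with 21 members called (8.86%, against 0.157% of all sets) and a median share of 0.273. The fast neutron line F2045 called 17 (7.17%, against 0.192%), with a median of 0.182. Some of these were OsAffx sets that d1 called too, such as OsAffx.32295.1.S1_at (0.909 in F2045, 0.727 in d1) and OsAffx.7600.1.S1_s_at (0.909 and 0.818). Others, such as Os.48730.1.S1_s_at, were not called in d1.

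Fewer members were called in the other gamma ray lines. G6686 called 8 (3.38%, against 0.0559% of all sets) and G6728 called 6 (2.53%, against 0.0315%), both with a median share of 0.182. G9799 called 5 (2.11%, against 0.0944%), G6489 called 4 (1.69%, against 0.0559%) and G6485 called 2 (0.844%, against 0.0402%), each with a median share of 0.0909. Over the 7 gamma ray lines outside the rule, 62 members were called in at least 1, or 26.2%, against 0.565% of all sets.

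The remaining arrays called almost no member. In D1137, the line with most calls after G282 and G6989, 4 members were called (1.69%), close to the 1.44% of all sets there, and the median share was 0. D256 called 1 member (0.422%, against 0.0297%), and D2943 called none of 237, where the 95% exact interval reaches 1.54%, against 0.014% of all sets. F1856 called 1 member (0.422%, against 0.0839%), and 221 of the members had no flagged probe in that line. The median share was 0 in each of the DEB lines and in F1856. In the wild type check 1 member was called (0.422%, against 0.0192% of all sets), and the median share of the members, 0.0909, equaled that of all probe sets. The upper quartile there was 0.182 for the members and 0.0909 for all sets, and the means were 0.0983 and 0.0745. No probe was flagged in 35.9% of the members and in 44.5% of all sets.

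The mean share of the members followed a similar order, with 0.355 in G6603, 0.291 in G7534, 0.225 in F2045, 0.204 in G6728, 0.200 in G6686 and 0.157 in G9799. It was 0.0983 in the wild type check, 0.0569 in D1137, 0.0331 in D256 and 0.00973 in F1856. The mean over all probe sets was also highest in G6603 (0.0654) and G7534 (0.0563) among the 12 lines outside the rule, and D1137 (0.0500) followed. G6603 and G7534 thus came first in both orders among these 12 lines. D1137 had a higher mean than F2045 over all sets (0.0500 against 0.0353) and a lower mean over the members (0.0569 against 0.225). The part of the array-wide level in the members' shares was not tested.

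**Figure D2:**
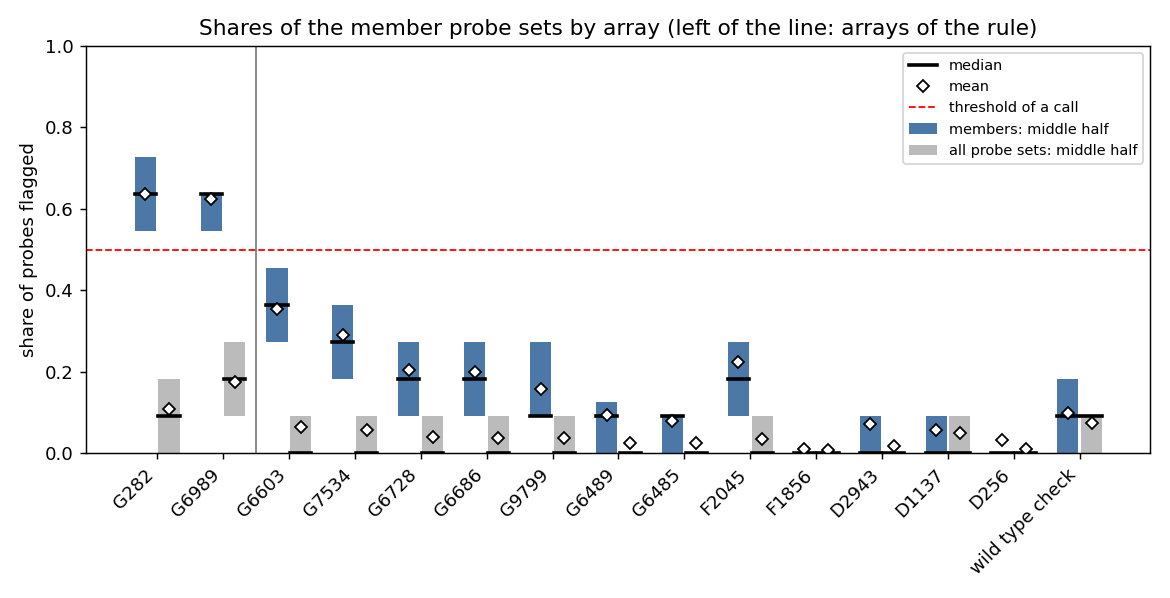
Share of probes flagged (y axis) by array (x axis) for the 237 members (blue) and all 57194 probe sets (gray). Boxes span the quartiles of the sets, lines are medians and diamonds means, and the red dashed line is the threshold of 0.5. Outside the rule the members reach a median of 0.364 in G6603 and 0.273 in G7534, and stand at 0.0909 in the wild type check, as all sets do. The mean in the wild type check is 0.0983 for the members and 0.0745 for all sets.

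Sets called in only 1 of the lines were called less in G6603 and G7534. Of the 715 sets called in G282 but not in G6989, G6603 called 18 (2.52%), and of the 1216 called in G6989 but not in G282 it called 27 (2.22%), with a median share of 0.182 in both. G7534 called 0.979% and 1.15% of these sets. In F2045 the G282 sets were called about as often as the members, 49 of 715 (6.85%), whereas 4 of the 1216 G6989 sets were called (0.329%). In D1137 the order was turned, with 0.839% of the G282 sets and 3.21% of the G6989 sets called. d1, which the rule used, called 11 members (4.64%, against 0.649% of all sets) and 85 of the G282 sets (11.9%). The members' count in G650 (2, or 0.844%, against 0.477%) is likewise bounded by the rule. Members had to pass in both lines, so these lists differ in how they were chosen and no test of their difference was made.

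**Figure D3:**
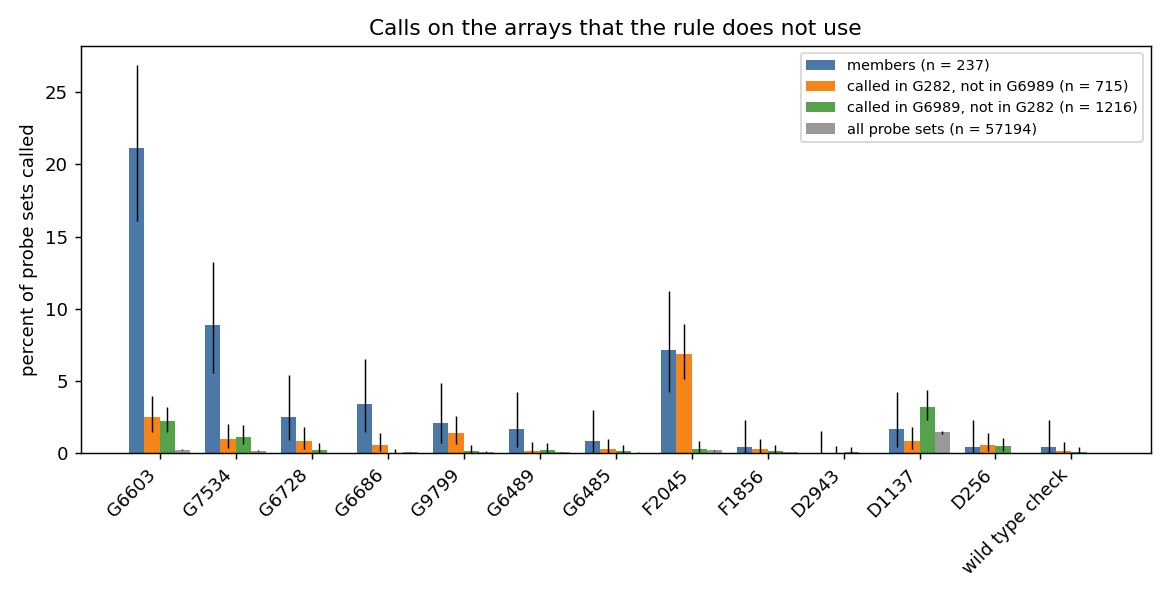
Percent of probe sets called (y axis) on the 12 lines outside the rule and the wild type check (x axis), for the members, the sets called in only G282 or only G6989, and all probe sets. Error bars are 95% exact Clopper-Pearson intervals over sets. In G6603 21.1% of the members were called, against 2.52% and 2.22% of the sets called in 1 line.

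The members nearest the threshold were called less in G6603, G7534 and F2045 than all members were. Among the 59 with 6 of 11 probes flagged in both lines, G6603 called 6 (10.2%) and G7534 4 (6.78%). F2045 called 2 (3.39%), D1137 1 (1.69%) and the wild type check none. Among the 344 sets just outside, G6603 called 19 (5.52%) and F2045 11 (3.20%). D1137 called 8 (2.33%), G7534 7 (2.03%) and the wild type check none. Of all probe sets, G6603 called 0.247%, G7534 0.157%, F2045 0.192%, D1137 1.44% and the wild type check 0.0192%. The median share in G6603 was 0.273 on either side of the threshold.

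Most members were called in no line outside the rule. Of the 237, 167 (70.5%) were called in none of the 12 lines, against 97.9% of all probe sets. A further 44 were called in 1 line, 15 in 2, 6 in 3, 3 in 5 and 2 in 6. The 70 called in at least 1 line make up 29.5%, against 2.13% of all probe sets. G6603 called 50 of these 70, and 29 of them were called in no other of the 12 lines. With the wild type check added, 71 members were called on at least 1 array, and 42 without G6603. When d1, G650 and the wild type check are counted as well, 164 members (69.2%) were called in G282 and G6989 alone. No share over all probe sets was computed for the counts that include these arrays.

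A few members were low in many lines. LOC4348707 on chromosome 10 had a share of 0.727 in G282, G6989 and G6603, of 0.636 in G7534 and of 0.545 in G6485, G6489, G6686, G6728 and d1. It reached 0.364 in G9799 and F2045 and 0.273 in the wild type check, and had no flagged probe in the DEB lines, G650 or F1856. The called lines were thus all gamma ray lines, 6 of the 7 outside the rule. The other sets of LOC4348707 were not called, with 0.182 and 0.0909 in G282 and the same shares in G6989. LOC4345721 on chromosome 8 had 0.818 in G282 and 0.909 in G6989, and was called in G6603 (0.636), G6728 (0.545) and G7534 (0.545). LOC4352029 on chromosome 12 had 0.545 in both lines of the rule, 0.636 in G6603 and 0.545 in G9799 and F2045.

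Among the members with no paired gene, OsAffx.719.1.S1_s_at was called in 6 of the 12 lines: its share was 0.625 in G6485, G6686 and G7534 and 0.5 in G6489, G6603 and F2045, with 0 in the wild type check. OsAffx.32299.1.S1_at had all probes flagged in G282, 0.727 in G6989, 0.909 in d1 and F2045 and 0.727 in G6603, G7534 and G9799, with 0.182 in the wild type check. OsAffx.13299.1.S1_at had all probes flagged in G6989 and G6686, a share of 0.875 in G6728 and of 0.5 in G282. OsAffx.26061.1.A1_at had 0.778 in G6603, G7534 and F2045 and 0.667 in G282, G6989 and G6728. These 4 sets were at 0 in F1856 and, except for OsAffx.32299.1.S1_at with 0.182, in G650. Except for that set, their shares are not in steps of 1/11, as for sets of fewer probes. A call there can rest on fewer flagged probes.

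Os.48730.1.S1_s_at, singled out after its values were seen, was called in all 4 radiation lines of the spl1 group. All its probes were flagged in G9799, and its share was 0.909 in G650, F1856 and F2045, 0.636 in G282 and 0.545 in G6989. It had 0.0909 in the wild type check, in d1 and in D1137, and at most 0.455 in the other lines. The set is not paired with a gene in the tables used, and its suffix marks probes that can match more than a single transcript.

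The names of the sets show which part of the array they come from. Sets whose names begin with OsAffx were built on gene predictions, the others on clusters of transcript sequences. Of the members, 47 (19.8%, exact interval 15 to 25.5%) were OsAffx sets, against 44.6% of the array. The share of OsAffx sets was 33.6% among all calls of G282 and 21.8% among those of G6989. Among the 214 sets called in both d1 and G650 it was 73.8%. Of the OsAffx sets on the array 0.184% were members, and of the other sets 0.599%.

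The suffix of a name tells how specific the probes are: _at sets match a single transcript, _a_at sets several transcripts of a gene, _s_at sets transcripts shared between genes, and _x_at sets hold probes that may match unrelated sequences. Among the members 192 (81.0%) ended in plain _at, against 80.1% of the array. The 21 members in _s_at (8.86%) and 10 in _a_at (4.22%) compare with 4.92% and 2.46% of the array, and the 14 in _x_at (5.91%) with 12.5%. _s_at and _x_at together made up 14.8% of the members and 17.4% of the array. Among the sets called in both d1 and G650, _x_at alone made up 41.1%.

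Calls outside the rule were also counted by name class. G6603 called 13 of the 47 OsAffx members (27.7%) and 37 of the 190 others (19.5%), with a median share of 0.364 in both classes. Over the whole array the order was reversed, with 0.133% of the OsAffx sets and 0.338% of the others called in G6603. In at least 1 of the 12 lines, 23 of the OsAffx members (48.9%) and 47 of the others (24.7%) were called, against 2.13% of all probe sets. That background was not split by class. The median in the wild type check was 0.0909 in both classes.

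**Figure D4:**
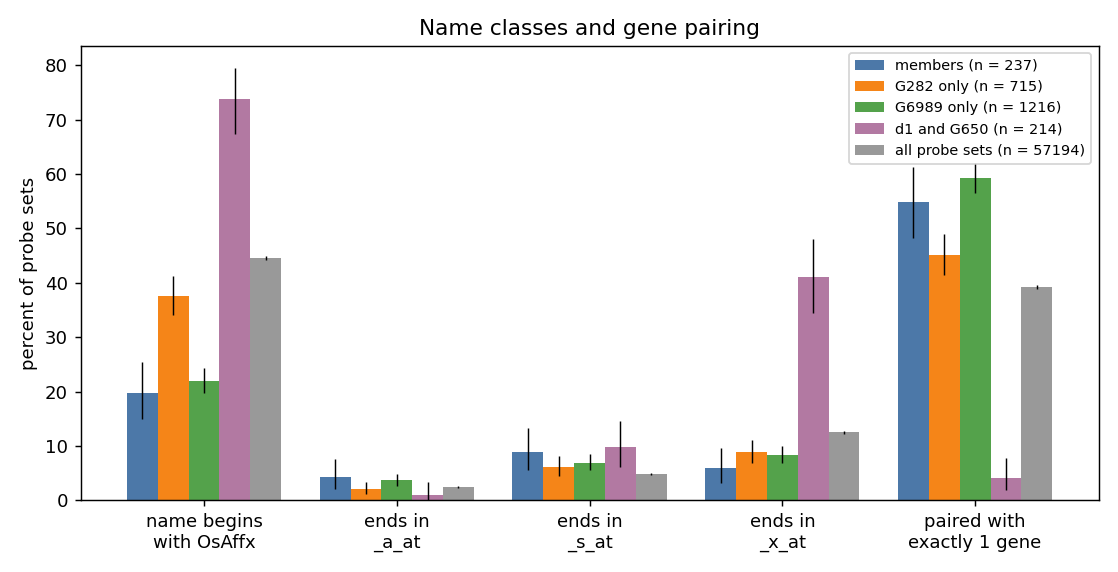
Percent of probe sets (y axis) in each name class and with exactly 1 paired gene (x axis), for the members, the sets called in 1 line of the rule, the sets called in both d1 and G650, and the whole array. Error bars are 95% exact Clopper-Pearson intervals over sets. Members hold 19.8% OsAffx sets, the array 44.6% and the d1 and G650 sets 73.8%.

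Exactly 1 gene was paired with 130 members (54.9%, against 39.2% of the array), several genes with 1 and none with 106. The 130 sets named 130 different nuclear genes, 124 of them protein coding and 6 long noncoding RNA genes, so no gene had more than a single member set. None of the genes was an organelle gene. Of all 17903 measured nuclear genes these are 0.726%. They lie on all 12 chromosomes, from 0.510% of the measured genes of chromosome 4 (8 genes) to 1.32% of those of chromosome 12 (12 genes). Chromosomes 1 and 2 held most member genes, 16 each, followed by chromosome 3 with 15. The median length of the member genes was 4578 bp (quartiles 3310 and 6899 bp), against 3526 bp for all measured genes, and it was 3397 bp, below all measured genes, when each array was centred on its median before the rule was applied. It was 4470 bp for the genes of sets called only in G282 and 4045 bp for those called only in G6989.

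No member gene was next to another in the order of measured genes. With a threshold of 0.4 in place of 0.5, 23 were, but members then numbered 782 in place of 237. Of these 59.1% and 54.9% were paired with exactly 1 gene. The counts that a random placement of as many genes would give were not computed, so clustering or scatter was not tested. Consecutive member genes of a chromosome had a median of 88.5 measured genes between them, and 6 of the 118 pairs had 5 or fewer. The closest were LOC4335690 and LOC4335696 on chromosome 4, with 1 measured gene between them, and LOC4338191 and LOC4338198 on chromosome 5, with 3. The 259 measured genes on either side of a member gene had a median share of 0.182 in G282 (all measured genes 0.0909) and of 0.182 in G6989 (all measured genes 0.182), by the median over the probe sets of each gene. Of these neighbors 6 were called in G282 (2.32%, against 1.32% of measured genes) and 11 in G6989 (4.25%, against 3.10%).

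Other probe sets of the same genes were mostly not called. Of the 130 genes, 73 had further sets, 106 in all. G282 called 5 of these (4.72%, against 1.73% of the array) and G6989 called 4 (3.77%, against 2.55%), which belong to 9 different genes. The median share of the further sets was 0.182 in G282 and 0.273 in G6989, while the member sets of the same genes had 0.636 in each. In G6603 the further sets had a median of 0.182 and the member sets of 0.364, and in the wild type check both had 0.0909. The highest share among the further sets was 0.909, in G282, at LOC4342265.

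**Figure D5:**
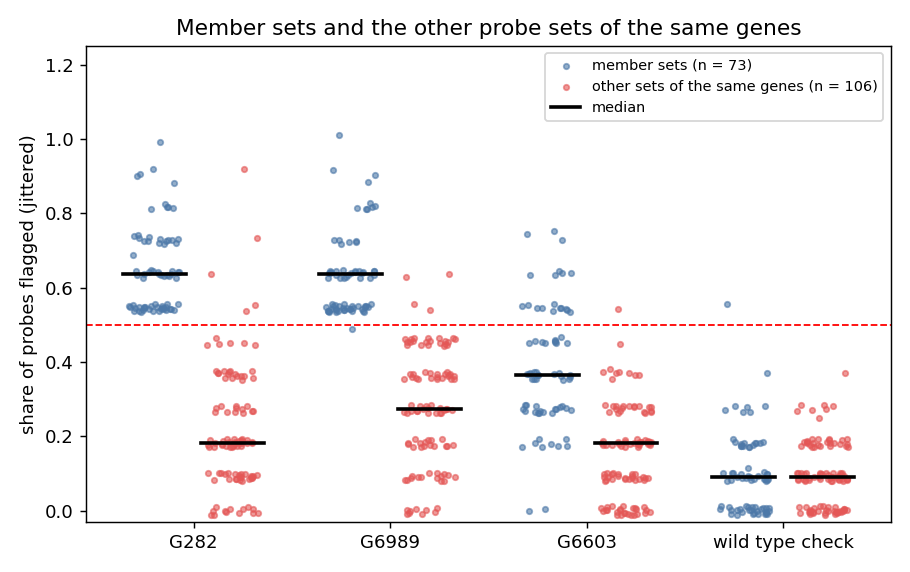
Share of probes flagged (y axis, points jittered) in 4 arrays (x axis) for the member sets (blue) of the 73 genes with more than a single probe set and the 106 other sets of the same genes (red). Black lines are medians and the dashed line is the threshold. In G282 the medians are 0.636 and 0.182, and in the wild type check both are 0.0909.

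LOC4342265 is the 1 member in the run of 14 called neighbors on chromosome 7 of G282. Its member set had all probes flagged in G282 and a share of 0.545 in G6989, with 0.0909 in the wild type check. The other set of the gene had 0.909 in G282 and 0.182 in G6989. Over the 14 genes of the run the median share was 0.909 in G282 and 0.273 in G6989, where the gene shares ran from 0 to 0.455 and none was called. The member set was at the lowest step past the threshold in G6989. It is a single set, whereas the gene shares are medians over the sets of a gene. By that median LOC4342265 had 0.364 in G6989, below the highest of the run.

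The highest lower value of the pair was that of LOC9268397 on chromosome 9, at 0.875 in both lines, with 0.750 in G6603, 0.5 in G6686 and 0.125 in the wild type check. The shares of its member set are not in steps of 1/11, as for a set of fewer probes. LOC4338191 on chromosome 5 had 0.909 in G282 and 0.818 in G6989, and was called in G6603 (0.636). LOC4325018 on chromosome 1 and LOC4351321 on chromosome 12 had 0.818 in both lines and 0.545 and 0.636 in G6603. All of these had at most 0.182 in the wild type check. The values are those of the member set of each gene. The other sets of these genes had at most 0.364 in G282 and in G6989, so neither line called them.

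LOC4332856 on chromosome 3 (0.818 and 0.727), LOC4346980 on chromosome 9 (0.727 and 0.818) and LOC4340886 on chromosome 6 (0.727 in both lines) followed, and none of the 12 other lines called them. The other sets of these genes had 0.182 to 0.273 in G282 and 0.182 to 0.364 in G6989. LOC4330571 on chromosome 2, LOC4348707 and LOC9269875 on chromosome 11, the last with 0.727 in both lines and in G6603, shared the lower value of 0.727 with them. LOC4336693 on chromosome 4 was the 1 member called in the wild type check, at 0.545, with 0.636 in G282 and 0.909 in G6989. Its other set had 0.182 in G282 and 0.364 in G6989. Among the unpaired sets Os.19740.1.S2_at had 0.875 and 0.750, Os.4914.1.S1_s_at and Os.51232.1.S1_at both 0.727 and 0.909. The shares of Os.19740.1.S2_at are likewise those of a set of fewer probes.

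Genes with a known name among the members were found through synonyms in the gene table, after their values were seen. LOC4330571 is listed as IAA8, of the family of auxin response repressors, and had 0.727 in G282 and 0.818 in G6989, with 0.545 in G6603 and 0 in the wild type check. Its other probe set had 0.636 in G282 and 0.273 in G6989. LOC4328135 is listed as CDKA;2, a cyclin-dependent kinase of the cell cycle, and had 0.636 and 0.545, with 0 in the wild type check and at most 0.273 in the 12 other lines. The other sets of this gene had 0.182 and 0.273, and 0.182 and 0.0909, in G282 and G6989.

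Several of these genes act on chromatin or DNA. LOC4348629, listed as GCN5, a histone acetyltransferase, had 0.545 in G282 and 0.818 in G6989 in its member set and 0.364 and 0.273 in its other set. LOC4346464, listed as TRX1, a trithorax-type histone methyltransferase, had 0.636 and 0.545 in its member set, while its other sets had 0.273 and 0.364 in G282 and 0.455 in G6989. LOC4347482, listed as TOP3B, a DNA topoisomerase, had 0.545 in both lines in its single set. None of these member sets was called in another line.

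Others act in the organelles, in protein folding or in signaling. LOC4326576, listed as PDF1B, a peptide deformylase that trims new organelle proteins, had 0.545 and 0.636. Os.27933.2.S1_at, a set of the same transcript cluster by its number but with no paired gene, was a member as well, with 0.545 in both lines. LOC4350378, listed as PRDA1, known in Arabidopsis for chloroplast development, had 0.727 and 0.545 and was called in G6603 and G7534 (0.545 each), while its other set had 0.0909 in G282 and 0.182 in G6989. LOC4339541, listed as QSOX1, a sulfhydryl oxidase that forms disulfide bonds, had 0.545 in both and at most 0.182 in the 12 other lines. LOC107276004, listed as PP2C16, a protein phosphatase, had 0.727 and 0.545, with 0.545 in G6603.

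Gene groups were counted by the first letters of a symbol or synonym, so they hold only part of each family. Of 117 measured genes named as kinases or phosphatases of the CIPK, CDPK, CPK, MPK, MAPK, PP2C, RLK or LRK type, 1 was a member gene (0.855%, LOC107276004), and CDKA;2, a kinase of another type, is not in this list. The count was 1 of 144 for transcription factor names (0.694%, LOC4330571), 1 of 29 for cytochrome P450 names (3.45%), and none of 23 heat shock protein or of 62 transporter names, against 0.726% of all measured genes. The P450 gene, LOC4351346, listed as CYP714C2, had 0.727 in G282 and 0.636 in G6989 in its member set and 0.0909 in both lines in its other set, and by the median over the sets of a gene no P450 gene of the list was called in either line. No group was tested.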

How the data were processed

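The authors averaged 2 scans of each Rice GeneChip array, read the perfect match probes with affy, scaled them to the wild type average without background correction, and flagged probes whose log ratio to wild type was low. The deposited value is the fraction of flagged probes of a probe set, and the log ratio limit behind this table is not stated in the sources used. In 57008 of 57194 sets (99.7%), 11 times each value was within 0.02 of a whole number, as for sets of 11 probes. This held for 229 of the 237 members (96.6%). G6603 called 44 of these members (19.2%), against 0.232% of all such sets. Which wild type array served as reference of the wild type check is not clear.

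Python 3.11.15, numpy 2.4.6, pandas 2.3.3, scipy 1.17.1 and matplotlib 3.10.9 were used. A set was called at 0.5 or more. Genes came from the platform annotation (22436 sets with exactly 1 gene, 95 with several, 34663 with none), and their order, length and synonyms from the gene table of the ASM3414082v1 assembly of japonica rice, used for names and neighbors only. The gene tables used hold no descriptions or sequences of these genes. No test between groups was made, since each line has 1 array, the lines share wild type and the members were chosen by these values. Members and lists were chosen with earlier results of these data known. Named genes are the 10 members paired with exactly 1 gene that had the highest lower value of the pair (ties by the higher sum, then by gene order, which left out LOC9269875 at an equal value), the paired members that the wild type check or at least 3 of the 12 other lines called, the member of the chromosome 7 run, and up to 4 unpaired sets by each measure; sets and genes named otherwise were added after their values were seen. The steps were tested on simulated data. Alternatives were other thresholds, centring, subtraction of the wild type check and left-out sets or arrays.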

Additional observations from a re-analysis of the deposited data

How the results depend on the processing

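The number of members depended on the threshold and the array level. It was 782 at a threshold of 0.4, 73 at 0.6, 34 with each array centred on its median and 116 with the wild type check subtracted, and stayed within 1.5 times of 237 under the other alternatives. Members called on at least 1 of the 12 other lines and the wild type check numbered 71 of 237. They numbered 254 of 782 at 0.4, 22 of 73 at 0.6 and 22 of 34 after centring. The share of all probe sets called on at least 1 of these arrays was not computed. Leaving out 1 of these arrays gave 42 to 71, with 42 without G6603. This alternative was chosen after seeing the data. G6603 called 21.0% of the members at 0.4, 23.3% at 0.6 and 58.8% after centring, against 0.843%, 0.0717% and 0.247% of all sets. The median share in the wild type check was 0 with the check subtracted and 0.0909 otherwise. OsAffx sets made up 26.0% of the members at 0.6 and 14.7% after centring, and sets in _s_at or _x_at 9.59% and 8.82%. Exactly 1 gene was paired with 46.6% at 0.6. At 0.4, 23 member genes were next to another, and none at 0.6, after centring or by the median over sets. No background was computed for these counts, which come from lists of different size. The median gene length was 3934 bp at 0.6 and 3397 bp after centring, below the 3526 bp of all measured genes in the latter case. By the construction of these settings, the number of members rose at 0.4 and fell at 0.6, after centring and with the check subtracted. The cause of the other changes was not tested. No paired analysis was possible because there is 1 array per line. Raw signals were not used, so the signal over background of the members is not known, and shares rest on about 11 probes.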
